A study of Homo sapiens with 12 samples.

Results

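DOT1L was depleted in HEK293T cells that received Wnt3A, and the RNA was compared with that of si-control cells under the same Wnt3A treatment. The comparison uses 2 of the 12 arrays of the series, taken by their titles: the si-DOT1L array after 9 h of Wnt3A and the si-control array after 9 h of Wnt3A. HEK293T is a human embryonic kidney line that carries no activating Wnt mutation and responds to added Wnt ligand. Both cultures were transfected with siRNA at 15 nM, the labels give 72 h of transfection, and Wnt3A conditioned medium was present for the 9 h before RNA extraction. The control siRNA received the same medium, so Wnt3A itself is common to both groups. RNA of each culture carried Cy3 and was hybridized to a dual-color Agilent Whole Human Genome array together with Cy5-labeled universal human reference RNA. The other HEK293T arrays, set beside these values where they show which array stood apart, hold si-control cells in control medium (CM) and cells given siRNA against MLLT10/AF10, BRG1 or P300 and then 9 h of Wnt3A. Each condition is 1 culture on 1 array, so the differences cannot be set against a spread between cultures, and no test was run. The title of the knockdown sample names si DOT1L, and its transfection field spells the siRNA si-cDOT1L.

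DOT1L is the enzyme that methylates lysine 79 of histone H3 within the body of transcribed genes. It works with MLLT10/AF10 and with the proteins of the elongation machinery, and the study asked whether it is needed for genes that β-catenin and its TCF partners switch on. In the Wnt pathway, the ligand stabilizes β-catenin, which then enters the nucleus and raises the transcription of targets that include feedback inhibitors of the pathway itself, such as AXIN2 and NKD1.

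Every array carried 45015 features, of which 43376 were not control spots, and 28755 were compared after features marked as outliers and features dimmer than 2-fold the local background in both channels on either array were left out. In the median feature the sample channel was 3.15 times as bright as the local background on the si-control array and 3.09 times on the si-DOT1L array. The values are log2 ratios of sample over reference RNA, called levels here, and a change is the level in si-DOT1L minus the level in si-control. The error given with a change is that of the scanner program's error model, combined over both arrays. It was 0.31 in the median feature and does not hold the spread between cultures. Among the HEK293T arrays, si-control with Wnt3A was hybridized alone on its slide, whereas the si-DOT1L array shared a slide with the si-MLLT10 and control medium arrays. Slide and siRNA therefore cannot be told apart in the main comparison, and the arrays of the shared slide are set beside it.

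DOT1L mRNA was lower in the cells given the DOT1L siRNA on 2 of its 3 probes. On probe A_23_P408768 the level was -0.10 in si-control and -2.07 in si-DOT1L, a change of -1.97 (error 0.35), or 3.91-fold lower. On the remaining HEK293T arrays it read -0.13 in control medium, -0.09 after si-MLLT10, -0.42 after si-BRG1, and 0.19 after si-P300. The si-DOT1L array was thus below each of the other 5 arrays, the nearest by 1.65 on the log2 scale. In RNA from a whole culture, fewer cells that express a gene and less RNA per cell cannot be told apart.

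On probe A_23_P101737 the level was 0.31 in si-control and -1.10 in si-DOT1L, a change of -1.41 (error 0.31), and the other 4 arrays lay between 0.23 and 0.34. The third probe, A_24_P936875, read -0.21 in si-control and -0.03 in si-DOT1L, a change of 0.17 (error 0.30) that is within its error. All 3 probes carry the same RefSeq accession, NM_032482, and where each lies in the transcript is not given in the sources used here.

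MLLT10/AF10, the partner through which DOT1L reaches its target genes, was not lower after DOT1L depletion. Its probe A_24_P406714 read 0.40 in si-control and 0.51 in si-DOT1L (change 0.11, error 0.29), against -1.35 on the si-MLLT10 array. Its probe A_23_P149912 read 1.42 and 1.65 (change 0.23, error 0.38), against 0.16 on the si-MLLT10 array. Both siRNA arrays were therefore low for their own target and not for the partner's mRNA.

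**Figure D1:**
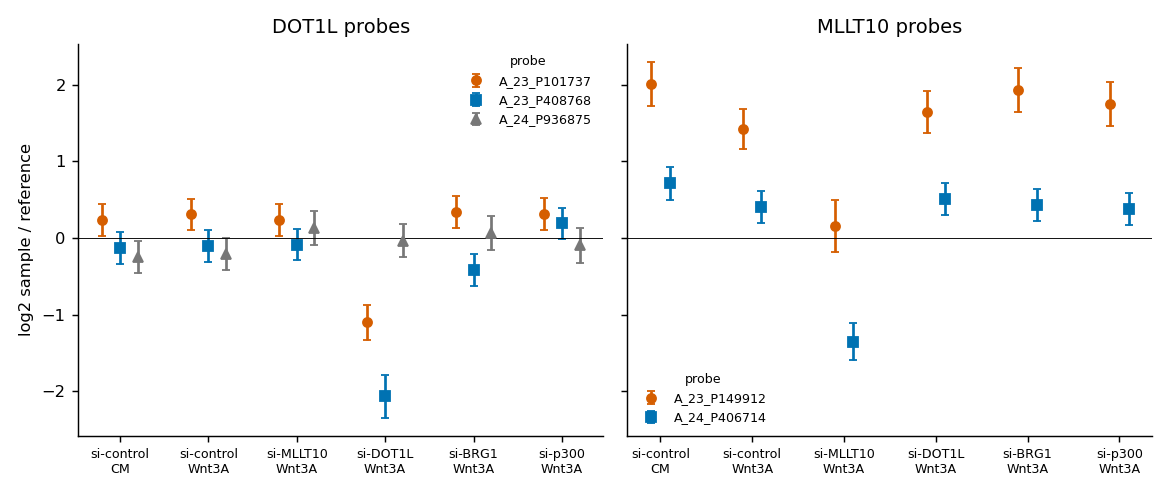
Levels (log2 sample over reference RNA, y axis) of the 3 DOT1L probes (left) and 2 MLLT10 probes (right) on the 6 HEK293T arrays (x axis), with bars for the program error of each array. Probes A_23_P101737 and A_23_P408768 of DOT1L were lowest on the si-DOT1L array, at -1.10 and -2.07, and both MLLT10 probes were lowest on the si-MLLT10 array.

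The list of DOT1L partners and elongation factors held 29 genes, of which 28 were measured on 54 probes. Apart from the 2 probes of DOT1L, 1 probe was past 1.5-fold, that of AFF3, a scaffold of elongation complexes, at a change of 0.72 (error 0.34). That made 1 of 54 probes higher and 2 lower, beside 2.09% and 3.68% of all features compared. The AFF3 level was 0.24 in si-control and 0.96 in si-DOT1L, yet its sample channel alone was lower by -1.17 and its reference channel by -1.89. The median change of the list was 0.01, beside -0.00 over all features compared. MLLT1 and MLLT3, the YEATS-domain partners ENL and AF9, had changes of 0.33 and 0.31 on the probes of MLLT1 and of -0.16 on each probe of MLLT3. CDK9, the kinase that releases paused RNA polymerase, was printed in 10 spots and read -0.10 in si-control and -0.11 in si-DOT1L.

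Across the array, 602 of the 28755 features were higher after DOT1L depletion by more than 1.5-fold (2.09%) and 1058 were lower (3.68%). The lower features were mostly dim ones. The sample channel was not well above background on at least 1 of the arrays for 572 of the lower features (54.1%) and for 158 of the higher ones (26.2%), beside 4.55% of all features. Where the sample channel was well above background on both arrays, 444 features were higher (1.62% of 27447) and 486 were lower (1.77%), which leaves the directions nearly even. The split also moved with the scaling: the sample channel alone, scaled to its own 75th percentile, gave 639 higher and 3783 lower features, and normexp background correction with loess gave 99 and 287. Over all features compared the median change was -0.06 in the sample channel alone and -0.03 in the reference channel.

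The direction of a change also moved with the level of the transcript. Where the mean level of both arrays was between -4 and -2 (2055 features), 23.1% were lower and 4.82% higher. Where it was between 2 and 4 (876 features), 1.94% were lower and 7.31% higher, and among the 15801 features between 0 and 2 these shares were 0.234% and 1.59%. Thus transcripts scarce in HEK293T cells relative to the reference RNA were called lower more often than higher, and transcripts enriched in HEK293T cells the reverse.

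The 2 channels took unequal shares of the higher and lower calls. For the lower features the median change of the sample channel alone was -1.09 and that of the reference channel -0.09, each channel scaled to its own 75th percentile. For the higher features these were 0.47 and -0.25, and in 258 of the 602 (42.9%) the reference channel moved more than the sample channel, beside 35 of the 1058 lower features (3.31%). The reference RNA was the same on both arrays. A higher ratio therefore came with a dimmer reference spot far more often than a lower ratio came with a brighter one, and the sample channel change is given below for several of the higher genes.

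**Figure D2:**
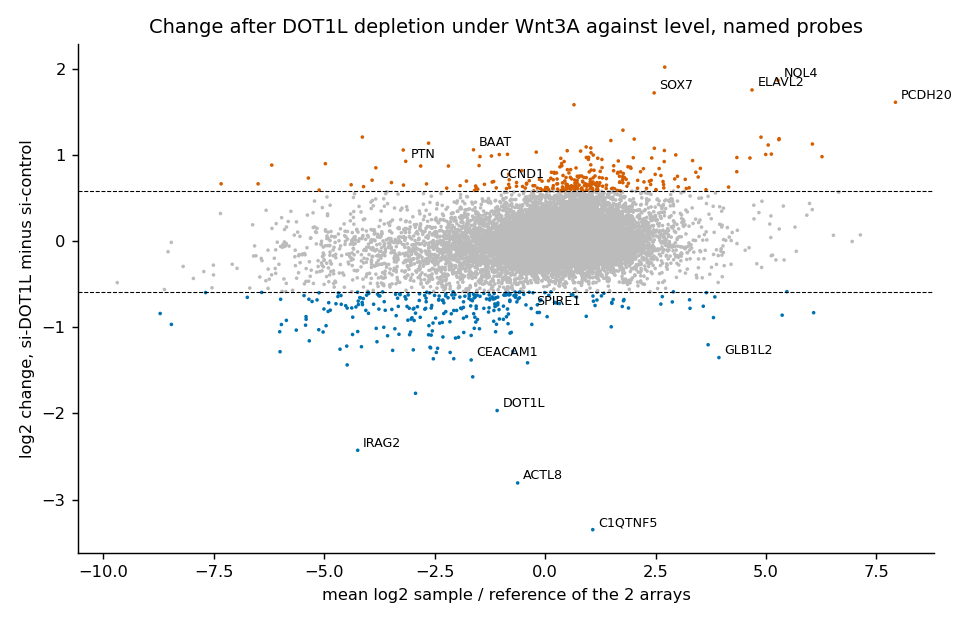
Change after DOT1L depletion (log2, y axis) against the mean level of both arrays (log2 sample over reference, x axis) for probes with a gene symbol and a sample channel well above background, colored where past 1.5-fold (dashed lines). Low levels hold mainly lower calls and high levels mainly higher calls, with DOT1L at -1.97 among the lowest.

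The other HEK293T arrays show which of the 2 arrays held the extreme value. Of the 25241 features well above background on all 6 arrays, 294 were lower after DOT1L depletion, and the si-control Wnt3A array was the highest of the 6 in 243 of them (82.7%), beside 13.8% of all these features. The si-DOT1L array was the lowest of the 6 in 62 of the 294 (21.1%), beside 9.71% of all. Of the 328 higher features, the si-control Wnt3A array was the lowest of the 6 in 223 (68.0%, beside 15.2% of all) and the si-DOT1L array the highest in 85 (25.9%, beside 7.54% of all). A feature called in a contrast of 2 arrays has those arrays far apart by the way it was chosen, so part of each excess follows from the call. Within the calls, the outermost array was si-control far more often than si-DOT1L. The si-control Wnt3A array was also the only HEK293T array with Wnt3A and no siRNA against a cofactor. A property of that array or its slide and a Wnt3A response lowered by each siRNA therefore cannot be told apart.

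On all 26792 features measured on the 6 arrays, whether or not well above background, the si-DOT1L array was the lowest of the 6 in 194 of 925 lower features (21.0%, beside 9.91% of all) and the highest in 136 of 468 higher ones (29.1%, beside 7.51%). The si-control Wnt3A array was the highest in 726 of the 925 (78.5%, beside 15.5%) and the lowest in 284 of the 468 (60.7%, beside 14.7%). Dim features included, the order of the 2 arrays was thus as among the well-measured ones. Among these features the si-control Wnt3A array stood more than 1.5-fold above every other array in 357 features and below every other in 66. The si-DOT1L array did so in 19 above (0.0709%) and in 22 below (0.0821%). Its distance from the arrays of its own slide can be set beside the main comparison, with which these share the si-DOT1L array. With the filter applied to each pair of arrays, 478 of 28396 features were higher than on the si-MLLT10 array (1.68%) and 559 lower (1.97%), and 895 of 28870 were higher than on the control medium array (3.1%) and 814 lower (2.82%). Over the features well above background on all 6 arrays, 163 were lower and 190 higher than on the si-MLLT10 array, 354 lower and 605 higher than on the control medium array, and 294 lower and 328 higher than on the si-control Wnt3A array. The si-DOT1L array was thus nearest to si-MLLT10, with an SD of the differences of 0.20, against 0.23 to si-control Wnt3A, 0.27 to control medium, 0.30 to si-P300, and 0.46 to si-BRG1.

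**Figure D3:**
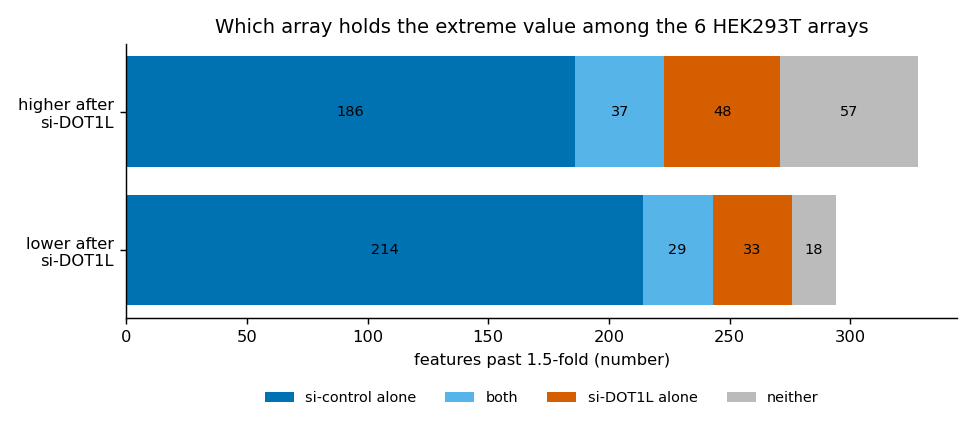
Number of features past 1.5-fold (x axis) that were higher or lower after DOT1L depletion, among those well above background on all 6 HEK293T arrays, split by which array held the extreme value of the 6. The si-control array alone was outermost in 214 of the 294 lower and 186 of the 328 higher features, and the si-DOT1L array alone in 33 and 48.

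Among probes well above background on all 6 arrays, DOT1L itself headed the genes for which the si-DOT1L array lay farthest below all the other arrays, ranked by the distance to the nearest of them. PSCA, a surface antigen anchored in the membrane, followed with a level of -4.15 after DOT1L depletion, against -3.15 in si-control, -2.72 in control medium, -3.23 after si-MLLT10, -2.08 after si-BRG1, and -2.97 after si-P300. SPIRE1, which nucleates actin filaments, read -0.71 after DOT1L depletion and between 0.07 and 0.48 on the other 5 arrays. The change was -0.999 (error 0.57) for PSCA and -0.78 (error 0.30) for SPIRE1.

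AGPAT3, an acyltransferase that makes phosphatidic acid, read -0.46 after DOT1L depletion and 0.13 to 0.51 elsewhere, with a change of -0.69 (error 0.29). A further AGPAT3 probe gave a change of -0.65 (error 0.31), and the remaining probe, A_23_P218743, gave -0.05 (error 0.31), so the probes of this gene differ. ELOVL5, which elongates polyunsaturated fatty acids, read -0.12 against 0.43 to 0.65, and CYB5B, a cytochrome b5 of the outer mitochondrial membrane, read -0.04 against 0.43 to 0.92 (sample channel alone, -0.31). Both ELOVL5 probes were lowest on the si-DOT1L array, with changes of -0.71 and -0.31.

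EFR3A, which anchors a phosphatidylinositol kinase complex at the plasma membrane, read -0.97 after DOT1L depletion and -0.41 to 0.21 on the other arrays. SNRK, a kinase related to the energy sensor AMPK, read -0.14 against 0.29 to 1.18, and its second probe was also lowest on the si-DOT1L array but with a change of only -0.09. TMT1A, a methyltransferase, was lowest there on both probes (changes -0.48 and -0.33), and the antisense RNA ZNF205-AS1 on its single probe (-0.42). Apart from DOT1L, these 9 genes were lower than in si-control by between -0.42 (ZNF205-AS1) and -0.999 (PSCA). They were picked for a si-DOT1L value below every other array, si-control among them, so this direction follows from the choice.

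At the opposite end of the ranking of probes well above background on all 6 arrays stood BAAT, which conjugates bile acids to glycine or taurine. It read -1.09 after DOT1L depletion, -2.15 in si-control, -2.17 in control medium, -2.15 after si-MLLT10, -2.15 after si-BRG1, and -2.66 after si-P300, a change of 1.06 (error 0.38). PTN, the heparin-binding growth factor pleiotrophin, read -2.69 against -4.04 to -3.50 on the other 5 arrays, and its second probe, A_23_P303087, read -3.34 against -4.87 to -3.89. The changes of the PTN probes were 0.93 (error 0.51) and 0.55 (error 0.56). For both genes the reference channel moved by at most 0.15 in size. Genes at this end were picked for a si-DOT1L value above every other array, so a value above si-control follows from the choice.

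ACAN, which encodes the cartilage proteoglycan aggrecan, read 1.43 after DOT1L depletion and 0.19 to 0.75 on the other arrays. FLI1, a transcription factor of the ETS family, read -2.08 against -3.67 to -2.64, and PHLDA2, an imprinted growth regulator, read -2.32 against -3.95 to -2.84. GALNT14, which starts O-linked glycosylation, read -1.06 against -2.38 to -1.57. DUSP2, a phosphatase that inactivates MAP kinases, was highest in si-DOT1L on both probes (changes 0.83 and 0.32, with 0.29 and 0.17 in the sample channel), as was LRP8, a receptor for reelin (0.48 and 0.43). NAB2, a corepressor of EGR factors, was highest there on A_23_P368187 (0.51), where the sample channel alone gave -0.18, and its second probe gave -0.04.

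**Figure D4:**
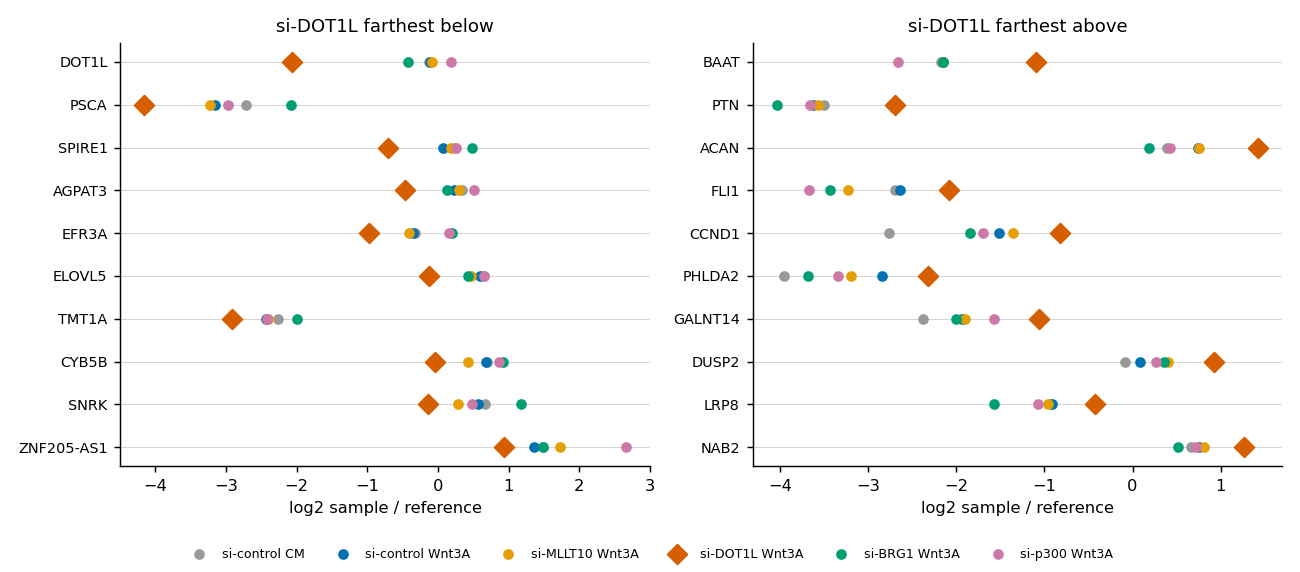
Levels (log2 sample over reference RNA, x axis) on the 6 HEK293T arrays for the 10 genes, among probes well above background on all 6 arrays, whose si-DOT1L value (orange diamond) lay farthest below (left) or above (right) the range of the other 5 arrays (circles). DOT1L at -2.07 is the most distant of these on the left and BAAT at -1.09 on the right.

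CCND1, the cyclin D1 gene and a Wnt target, belonged to the genes for which si-DOT1L stood above all other arrays, and it did so on each of its 3 probes. On the probe printed in 10 spots, A_23_P202837, the level was -2.76 in control medium, -1.51 in si-control Wnt3A, and -0.82 in si-DOT1L, a change of 0.69 (error 0.33, SD between spots 0.06). It read -1.36 after si-MLLT10, -1.85 after si-BRG1, and -1.70 after si-P300. The single-spot probes A_24_P124550 and A_24_P193011 gave changes of 0.51 (error 0.29) and 1.01 (error 0.33). CCND1 therefore read higher on the si-control Wnt3A array than on the control medium array, and higher again on the si-DOT1L array.

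Of the 12 largest decreases among probes well above background, each except DOT1L was highest on the si-control Wnt3A array among the HEK293T arrays. That array was also the only HEK293T array with Wnt3A and no siRNA against a cofactor. The levels therefore cannot separate a property of the array or its slide from a Wnt3A response lowered by each siRNA. Which of these gave the decreases was not tested. C1QTNF5, a secreted protein of the C1q and TNF-related family, had a level of 2.75 in si-control Wnt3A and -0.60 in si-DOT1L, a change of -3.35 (error 0.39). The remaining HEK293T arrays, control medium included, lay between -0.64 and -0.09 for C1QTNF5, so the si-control array alone was high. ACTL8, an actin-like protein, read 0.78 in si-control and -2.03 in si-DOT1L, and -3.05 to -1.77 on the others.

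The same order held for IRAG2 (change -2.43, error 0.66), the H1 histone pseudogene H1-9P (-1.77, error 0.50), the cytochrome P450 CYP2W1 (-1.57, error 0.38), the meiosis gene MEIOB (-1.44, error 0.67), the adhesion molecule CEACAM1 (-1.38, error 0.38), the lysosomal protein LAPTM5 (-1.37, error 0.46), LRRN3 (-1.36, error 0.42), GLB1L2 (-1.35, error 0.71), and the T cell adaptor LAT (-1.29, error 0.43). In each of them the si-control Wnt3A array was the highest of the 6. The si-DOT1L array was the lowest of the 6 for DOT1L and, by a margin of 0.01, for LAT. CEACAM1 was lower on each of its 3 probes (-1.38, -1.06, and -0.68), whereas the second LAPTM5 probe was not well above background on both arrays and the other LAT probes gave -0.12 and -0.24. For GLB1L2 the sample channel alone gave -0.24, and after another background correction, normexp, with loess the change was 0.01.

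The 12 largest increases were led by transcripts enriched in HEK293T cells and measured against a dim reference. NOL4, a nucleolar protein, read 4.34 in si-control and 6.20 in si-DOT1L, a change of 1.87 (error 0.79), with 0.34 in the sample channel and -1.52 in the reference channel. ELAVL2, a neuronal RNA-binding protein, had a change of 1.76 (error 0.75), and SOX7, a transcription factor, 1.72 (error 0.48), with sample channel changes of 0.21 and 0.00. In these 3 genes si-control was the lowest of the 6 arrays, and the si-DOT1L value lay within the range of the other 4 arrays. Second probes gave smaller changes, 0.37 (error 0.91) for NOL4 and 0.37 (error 0.32) for SOX7. On the second SOX7 probe si-DOT1L was the highest of the 6 by only 0.015. Its sample channel alone gave -0.96 and its reference channel -1.33.

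PCDH20, a protocadherin, read 7.12 in si-control and 8.74 in si-DOT1L (change 1.61, error 1.14), the highest of the 6 by 0.30. The changes of B3GAT2 (1.29), FDXACB1 (1.17), and OXGR1 (1.18) had sample channel parts of 0.10, 0.27, and 0.61. By contrast, the sample channel gave most of the change for TCIM (1.21 of a change of 1.21), CCN3 (1.41 of 1.14), BAAT (0.94 of 1.06), G0S2, an inhibitor of fat breakdown (0.98 of 1.06), and the protease PRSS22 (1.13 of 1.04). A second TCIM probe, A_23_P253345, gave -0.54 (error 0.39), a second CCN3 probe, A_24_P29885, gave 0.09 (error 0.32), and a second FDXACB1 probe, A_23_P362261, gave 0.13 (error 0.32), so the probes of these genes differ too.

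Wnt target genes were addressed with a list of 47 genes, of which 43 were measured on 59 probes. After DOT1L depletion 5 probes were higher and 1 was lower past 1.5-fold, beside 1.84% higher and 3.05% lower of all 19396 probes with a gene symbol. The median change was -0.05, with 27 probes above 0 and 32 below. The higher probes were those of ASCL2, a stem cell transcription factor (0.87, error 0.48), ISL1, a LIM homeobox factor (1.13, error 0.90), JUN, an AP-1 subunit (0.73, error 0.34), and 2 probes of CCND1. The lower probe was that of CEMIP, which was not well above background on either array, so no change is read from it, and a second CEMIP probe gave -0.09 (error 0.69). For ISL1 the sample channel alone gave -0.57, and for ASCL2 it gave 0.71.

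The ASCL2 level was -3.63 in control medium, -3.26 in si-control, -2.38 in si-DOT1L, -3.01 after si-MLLT10, -3.43 after si-BRG1, and -2.75 after si-P300, with si-DOT1L highest. JUN read 1.56 in control medium, 1.02 in si-control, 1.75 in si-DOT1L, and 1.37 to 2.15 on the remaining arrays. Its si-control value was the lowest of the 6, and the si-DOT1L value lay within the range of the others.

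The feedback inhibitors AXIN2, NKD1, and RNF43 were below their si-control levels by less than 1.5-fold. AXIN2, the scaffold of the β-catenin destruction complex, read -0.62 in control medium, 0.46 in si-control Wnt3A, and 0.24 in si-DOT1L, a change of -0.22 (error 0.29). NKD1, which binds Dishevelled, read -1.12, -0.46, and -0.94, a change of -0.48 (error 0.31), and RNF43, a ubiquitin ligase that removes Frizzled receptors, read -1.33, -0.95, and -1.40, a change of -0.45 (error 0.33). AXIN2 differed from si-control by less than its error, while NKD1 and RNF43 lay near their control medium levels. For AXIN2 the sample channel alone was higher, by 0.20, and the lower ratio came with a brighter reference channel (0.41). For NKD1 the sample channel alone gave -0.77 and the reference channel -0.29. For AXIN2 and NKD1 the si-control Wnt3A array was the highest of the 6. AXIN2 read 0.19 after si-MLLT10, -0.34 after si-BRG1, and -0.16 after si-P300, and NKD1 read -0.96, -1.13, and -0.60, so the si-DOT1L level of NKD1 was near those after si-MLLT10 and si-BRG1.

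The related ligase ZNRF3 gave -0.18 and 0.49 on its probes, and the secreted inhibitors NOTUM and DKK1 gave -0.17 (error 0.34) and 0.14 (error 0.50). MYC, printed in 10 spots, read -0.64 in control medium, -0.88 in si-control, and -0.49 in si-DOT1L, a change of 0.39 (error 0.30). LEF1, a TCF family member, gave -0.09 and -0.08, and TCF7, printed in 10 spots, gave 0.10 (error 0.33). None of these reached 1.5-fold.

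On 15 probes of the list the si-control Wnt3A array was more than 1.5-fold above the control medium array. This difference crosses slides, so slide and Wnt3A cannot be told apart in it. The si-DOT1L and control medium arrays share a slide, so the differences of si-control and si-DOT1L to control medium are unlike in this respect. Of the 15, 14 were higher in si-DOT1L than in control medium, 10 of them by more than 1.5-fold, beside 3.1% of all features compared between these arrays. The median difference to control medium was 0.97 in si-control and 0.86 in si-DOT1L, and the median change between them was 0.02, with 7 lower and 8 higher. The probes were picked for a high si-control value, which favors lower values on any second array, and both differences share the control medium array.

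Gene by gene, the difference to control medium was 1.08 in si-control and 0.86 in si-DOT1L for AXIN2, 1.19 and 1.33 for DKK1, 0.82 and 0.91 for TCF7, and 0.62 and 0.64 for the receptor EPHB3. It was 0.63 and 0.50 for the homeobox gene GBX2, 0.59 and 0.47 for ZCCHC12, 0.92 and 0.48 for the AP-1 gene FOSL1, and 0.66 and 0.18 for NKD1. For NKD1 the si-DOT1L difference was 27.1% of that in si-control, the smallest share among the well-measured probes. For the 3 CCND1 probes the difference was larger in si-DOT1L, at 1.94, 1.63, and 1.86 against 1.24, 1.12, and 0.86.

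**Figure D5:**
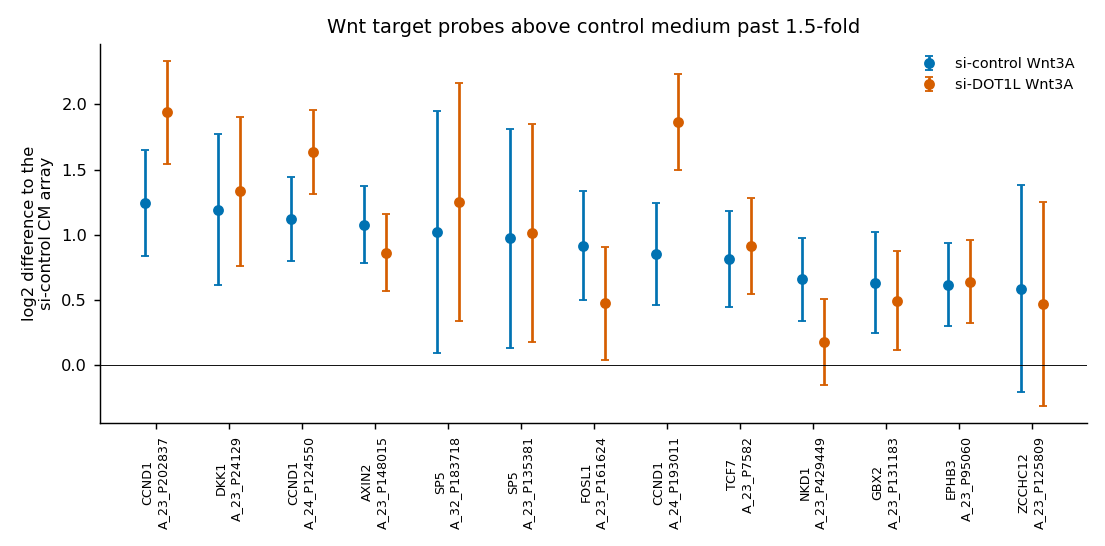
Log2 difference to the si-control array in control medium (y axis) for the 13 probes of Wnt target genes (x axis) that were past 1.5-fold in si-control Wnt3A cells (blue) and well above background, beside si-DOT1L Wnt3A cells (orange), with bars for the combined program error. The si-DOT1L values overlap with the si-control values within these errors except on the A_24_P193011 probe of CCND1, and NKD1 at 0.18 lies lowest. Both bars hold the error of the shared control medium array, so overlap does not place a change within its own error. Set directly against si-control, CCND1 probe A_23_P202837 changed by 0.69 (error 0.33) and NKD1 by -0.48 (error 0.31).

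SP5, a transcription factor that Wnt signaling induces directly, was the gene of the list whose promoter held the letters that TCF factors recognize. In the RefSeq promoter table (GRCh38.p14, 250 bases before to 50 after a gene's start), 30 of the 47 genes had an entry, and 1 of the 30 (3.33%) held CTTTGAT on either strand, beside 721 of all 27305 promoters (2.64%). The SP5 promoter, chr2:170715087-170715386 on the plus strand, is shown with the match in capitals, and that of ZCCHC12, chrX:118823574-118823873 on the plus strand, an induced gene in HEK293T cells without a match, stands beside it.
SP5: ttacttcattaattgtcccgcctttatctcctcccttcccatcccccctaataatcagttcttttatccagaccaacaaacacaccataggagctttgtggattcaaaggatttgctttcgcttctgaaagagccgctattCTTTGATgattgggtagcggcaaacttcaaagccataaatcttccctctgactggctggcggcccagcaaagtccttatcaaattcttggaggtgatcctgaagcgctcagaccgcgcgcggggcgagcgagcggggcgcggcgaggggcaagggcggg
ZCCHC12: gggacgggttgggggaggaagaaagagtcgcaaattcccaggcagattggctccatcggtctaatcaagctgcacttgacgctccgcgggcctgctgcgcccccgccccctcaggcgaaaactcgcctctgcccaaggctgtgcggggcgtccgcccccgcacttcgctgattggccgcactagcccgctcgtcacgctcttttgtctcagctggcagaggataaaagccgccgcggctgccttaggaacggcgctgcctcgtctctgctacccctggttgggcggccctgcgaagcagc

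The SP5 probe A_23_P135381 read -6.30 in control medium, -5.33 in si-control Wnt3A, and -5.29 in si-DOT1L, and A_32_P183718 read -6.95, -5.93, and -5.70. The remaining SP5 probe, A_32_P74615, read 0.08, -0.08, and 0.13 and did not follow the other two. ZCCHC12 read 5.15, 5.74, and 5.63, a change of -0.12 (error 0.82). For both genes the si-DOT1L level was within the error of the si-control level. Among the 195 genes higher after DOT1L depletion that had a promoter entry, 6 held the letters (3.08%), and among the 197 lower genes 2 did (1.02%), beside 158 of the 10567 genes compared that had an entry. A match describes the letters only.

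Receptors and intracellular components of the pathway had small median changes. The 27 probes of Wnt ligand reception had a median change of -0.04, and the 1 past 1.5-fold, of the secreted antagonist SFRP2, was not well above background on either array. The 38 probes of cytoplasmic and nuclear components had a median of -0.02, and BCL9L, a β-catenin coactivator, was the 1 past 1.5-fold at -0.60 (error 0.32). These counts stand beside 1.84% higher and 3.05% lower of all probes with a symbol. BCL9L read 0.02 in si-control, -0.57 in si-DOT1L, and -1.05 to -0.46 on the other arrays, with si-control highest.

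Of the other histone lysine methyltransferases and demethylases, 65 probes of 34 genes had a median change of 0.01, and 3 probes were higher and 0 lower (1.84% and 3.05% of all probes with a symbol). The higher ones were 2 probes of KMT2A, the methyltransferase rearranged in leukemia as a fusion with DOT1L partners, at 0.62 (error 0.30) and 0.73 (error 0.33), with 0.34 and 0.28 in the sample channel, and SUV39H2, which methylates histone H3 at lysine 9, at 0.93 (error 0.52). KMT2A read -0.14 and -0.24 in si-control, 0.48 and 0.49 in si-DOT1L, 0.48 and 0.37 after si-MLLT10, and 0.19 and -0.08 in control medium. Its si-control value was lowest of the 6 on both probes, and si-DOT1L overlapped with si-MLLT10 and si-BRG1.

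HOX and MEIS genes, known targets of DOT1L in leukemia, had a median change of -0.11 over 43 probes, with 15 above 0 and 28 below. HOXD11 was past 1.5-fold, at 4.29 in si-control and 3.09 in si-DOT1L (change -1.20, error 0.58), but its sample channel alone gave 0.09. The other 4 arrays lay between 2.84 and 3.19 for HOXD11, so si-control was high. In the whole list, then, 1 of 43 probes was lower, beside the 3.68% of all features.

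Immediate early genes had 3 of 37 probes higher, those of JUN, DUSP2, and SRF (0.59, error 0.33, with -0.26 in the sample channel), 0 lower, and a median of -0.02, beside 1.84% higher and 3.05% lower of all probes with a symbol. For interferon-stimulated genes, 2 of 36 probes were higher and 3 lower (1.84% and 3.05% of all probes with a symbol), with a median of -0.10. MX2, an antiviral GTPase, was lower on both probes (-1.11, error 0.43, and -1.03, error 0.75), and XAF1, an apoptosis factor, was lower by -1.09 (error 0.46). In MX2 and XAF1 the si-control Wnt3A array was the highest of the 6. IFI44L was higher (0.61, error 0.36), and IFIT3 was well above background in si-DOT1L and not in si-control.

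YAP and TEAD targets (21 probes) held 1 lower probe, the ecto-nucleotidase NT5E (-0.70, error 0.57), and hypoxia targets (40 probes) 1 lower, the glycolytic regulator PFKFB3 (-0.69, error 0.37). The unfolded protein and stress response list (30 probes) held 1 higher, the chaperone DNAJC3 (0.62, error 0.29). These counts stand beside 1.84% higher and 3.05% lower of all probes with a symbol. The medians of these lists were 0.06, -0.10, and 0.06, and that of the BMP and TGF-β response list (32 probes) was -0.03.

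Lists of basal cell functions held no probe past 1.5-fold in either direction, beside 1.84% higher and 3.05% lower of all probes with a symbol. Among all features at mean levels between 0 and 2, the shares were 1.59% higher and 0.234% lower. The median si-DOT1L levels of the replication, mitosis, and ribosome biogenesis lists were in that range, at 0.87, 0.34, and 0.77. The lists were p53 targets (33 probes, median change 0.05), cholesterol synthesis (44 probes, -0.05), DNA replication (48 probes, 0.03), mitosis (43 probes, -0.08), ribosome biogenesis (62 probes, 0.08), and housekeeping genes (46 probes, -0.05). The changes of all replication probes lay between -0.18 (MCM6) and 0.40 (RRM2), and those of mitosis probes between -0.26 (KIF11) and 0.23 (BUB3). In ribosome biogenesis PES1 was lowest (-0.42) and POLR1A highest (0.54), and in cholesterol synthesis STARD4 (-0.40) and SCD (0.32). For p53 targets the range was -0.14 (PHLDA3) to 0.56 (SPATA18), and for housekeeping genes -0.36 (PPIA) to 0.23 (HPRT1).

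Markers of the cell line were present on both arrays. Neurofilament genes, which HEK293T cells express, read 3.29 and 4.60 (NEFL) and 4.96 (NEFM) in si-control and 3.79, 4.86, and 5.26 in si-DOT1L, and LIN28B read 2.22 and 2.54 against 2.81 and 2.92. The 14 probes of the HEK293T list had a median change of 0.18, with 8 above 0 and 6 below, and 1 past 1.5-fold (LIN28B, 0.59, error 0.45). Fibroblast markers were measured on 11 probes, with levels from -7.67 to -0.38 in si-control and -7.00 to -0.40 in si-DOT1L. Of these 3 were higher and 2 lower (1.84% and 3.05% of all probes with a symbol), and 3 were not well above background in si-DOT1L.

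Colon epithelium markers were measured on 12 probes, and 6 were lower and 0 higher, beside 3.05% and 1.84% of all probes with a symbol and 23.1% lower among features at mean levels between -4 and -2. The list had a median of -0.62 that became 0.01 against the mean of the other 5 HEK293T arrays. TFF3, a secreted trefoil peptide, was lower on both probes well above background (-0.86, error 0.53, and -0.69, error 0.64), and AGR2 gave -0.97 (error 0.86) at a level of -6.46 in si-DOT1L. In si-DOT1L 4 of the 12 probes were not well above background, the defining markers VIL1 and TSPAN8 among them. CDX2, an intestinal homeobox factor, read 4.34 in si-control and 4.07 in si-DOT1L and was thus above the reference RNA in both. The median level of the list was -3.04 in control medium, -2.30 in si-control Wnt3A, and -3.25 in si-DOT1L, so si-control was the highest of these. Levels of this list therefore moved with the si-control array as the largest decreases did, and its part in them was not tested.

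Different probes of a gene gave a further view of the same 2 arrays. Among genes with more than 1 probe, 83 had a probe well above background that was lower past 1.5-fold, and of their 105 other probes 79 were also below 0, 10 of them past 1.5-fold, with a median of -0.18. For 137 genes with a higher probe, 127 of 189 other probes were above 0 and 13 past 1.5-fold, with a median of 0.10. Among all features well above background on both arrays, 1.77% were lower and 1.62% higher past 1.5-fold. The median change over all probes with a symbol was -0.01. All probes well above background on both arrays were lower past 1.5-fold for 6 of these genes, namely CEACAM1, the globin gene HBD, MARCHF2, MX2, MYO1G, and TFF3. MARCHF2, a membrane ubiquitin ligase, had changes of -0.88 (error 0.31) and -0.83 (error 0.30), and on both probes si-DOT1L was the lowest of the 6 arrays.

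All probes well above background on both arrays were higher past 1.5-fold for 7 genes with more than 1 such probe. Among them were KMT2A, FGF13, an intracellular fibroblast growth factor homolog, and SCLT1, a protein of centriole appendages. FGF13 had changes of 0.62 (error 0.41) and 0.99 (error 0.36), almost wholly in the sample channel (0.68 and 0.95). On its probe A_24_P85009 the level was -1.71 in si-control and -0.72 in si-DOT1L, the highest of the 6, with si-BRG1 next at -0.78. Of 207 probes well above background and measured in 5 or more spots, whose spots differed by a median SD of 0.05, 3 were higher and 4 lower. These stand beside 1.62% and 1.77% of all features well above background. The higher ones were CCND1, JUN, and the nitric oxide synthase NOS2 at 0.60. The lower ones included IL6 at -1.04, F5 at -0.79, and LCK at -0.75. On each of the 4 lower probes si-control Wnt3A was the highest of the 6 arrays. IL6 read -2.03 in si-control and -3.08 in si-DOT1L, against -3.16 in control medium and -3.17 after si-MLLT10.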

How the data were processed

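Per the file headers, the authors scanned dual-color Agilent arrays and took intensities and local backgrounds with Feature Extraction 10.5.1.1, whereas the submitters' processing notes name 8.5.1.1. The deposited log10 ratios (Cy5 reference over Cy3 sample) were already background-subtracted and dye-normalized by that program, and the deposited value table held the same ratios. Ratios were turned to log2 sample over reference. Control spots, outlier flags, and features whose median signal was not above 2-fold the local background in either channel were left out on both arrays. Spots of a probe were averaged, and symbols came from RefSeq accessions. With 1 array per group, changes past 1.5-fold were counted and no test was run. Genes named were the 12 largest changes in each direction with a sample channel well above background and of the same sign, and the 10 on each side farthest from the other HEK293T arrays among probes well above background on all 6. The members and gene lists were chosen with earlier results of these data known. Single channels were scaled to the array's 75th percentile. Alternatives included normexp (offset 50) with loess in limma 3.58.1 (R 4.3.3). Python 3.11.15, numpy 2.4.6, and pandas 2.3.3 were used. The number of arrays limits the precision. Some results are not reported here.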

Additional observations from a re-analysis of the deposited data

How the results depend on the processing

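Each choice was changed alone, and the comparators from the slide of the si-DOT1L array were chosen after seeing the data. The count of features past 1.5-fold, 602 higher and 1058 lower, was 2616 and 4083 with no filter on signal, 201 and 134 with both channels above 2-fold the local background, 121 and 466 at a threshold of 2-fold, 99 and 287 after normexp and loess, and 316 and 286 against the mean of the other 5 HEK293T arrays. The lower count alone moved by over 1.5 times with the sample channel well above background (486), in the sample channel alone (3783), and against si-MLLT10 (559). DOT1L stayed low: A_23_P101737 gave -2.09 in the sample channel and -1.08 after normexp and loess, and A_23_P408768 gave -1.56 after normexp and loess. The third probe gave -0.27 in the sample channel and -0.16 against si-MLLT10. List medians are given where they moved by more than the standard error of the list's median. With both channels above 2-fold the local background, list medians were -0.055 (histone lysine methyltransferases and demethylases) and 0.067 (HEK293T). With the sample channel well above background, the list median was -0.40 (colon). After normexp background correction and loess, list medians were -0.080 (cholesterol), -0.0029 (replication), -0.054 (mitosis), -0.12 (BMP and TGF-β), 0.061 (HEK293T), and -0.17 (colon). In the sample channel alone, list medians were -0.079 (DOT1L partners), -0.086 (immediate early), -0.014 (mitosis), -0.15 (housekeeping), and 0.065 (HEK293T). Against the mean of the other 5 HEK293T arrays, list medians were 0.11 (Wnt targets), 0.053 (Wnt reception), 0.17 (immediate early), 0.17 (YAP and TEAD), -0.12 (p53), 0.067 (cholesterol), 0.040 (hypoxia), 0.027 (housekeeping), -0.018 (HEK293T), and 0.0069 (colon). Against si-MLLT10, list medians were 0.038 (Wnt targets), 0.059 (Wnt reception), 0.050 (HOX and MEIS), 0.15 (immediate early), -0.11 (p53), 0.012 (stress response), -0.013 (cholesterol), 0.024 (hypoxia), -0.010 (replication), -0.023 (mitosis), 0.073 (BMP and TGF-β), -0.017 (housekeeping), -0.034 (HEK293T), and -0.085 (colon). Against control medium, list medians were 0.19 (Wnt targets), 0.48 (immediate early), 0.031 (interferon), 0.20 (stress response), 0.035 (cholesterol), 0.052 (hypoxia), -0.0061 (replication), 0.13 (ribosome biogenesis), 0.076 (HEK293T), and -0.073 (colon). Among the named probes, 17 of 40 moved by more than their error against control medium, 19 of 39 against si-MLLT10, 17 of 38 against the mean of the other 5 arrays, 19 of 41 after normexp and loess, and 12 of 41 in the sample channel alone, without a change of sign except for NAB2 in the sample channel alone (-0.18). Changes turned sign against control medium for C1QTNF5 (0.04), ACTL8 (1.02), CEACAM1 (0.094), and NOL4 (-0.088), against si-MLLT10 for LRRN3 (0.26) and FDXACB1 (-0.08), and after normexp and loess for GLB1L2 (0.0099). Keeping outlier flags, centering, and the deposited value table moved none of the counts or medians that far. The cause of these shifts was not tested. No paired analysis was possible because each condition is 1 array. Dim spots limit the comparison: 4.55% of the features compared were not well above background on both arrays, but 54.1% of the lower calls.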
